A study of Mus musculus with 10 samples.

Results

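Neuronal differentiation bHLH factors were followed in sorted cells of the embryonic mouse cortex after knockdown of Chd8, a chromatin remodeler. They are 6 of the 23235 genes in each expression table and were chosen by gene symbol: Neurod1, Neurod2, Neurod6, Nhlh1, Nhlh2 and Bhlhe22. All 6 were present in both tables and passed the filter of a mean of at least 1 FPKM (fragments per kilobase of transcript, scaled to the mapped fragments of a library). Radial glia, which divide at the ventricle and give rise to cortical neurons, received plasmids by in utero electroporation at embryonic day 13, with either a control shRNA or an shRNA that targets Chd8. GFP-positive cells were sorted from the cortex at embryonic day 15, so every group was enriched for electroporated cells and their progeny, pooled from 3 to 5 embryos per replicate. A new set has 3 control and 3 knockdown libraries (replicates 10, 11 and 12, the table named for shRNA1), and a first set has 2 control and 2 knockdown libraries (replicates 1 and 2, the table named for shRNA2). The sources used here do not give strain, sex or the sequence of either shRNA.

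Basic helix-loop-helix (bHLH) factors bind DNA as dimers through a basic region next to a helix-loop-helix, and recognise a short motif called the E-box. Tissue-specific members pair with broadly expressed E proteins such as Tcf3, Tcf4 and Tcf12, while Id proteins lack a DNA-binding region and hold E proteins in inactive pairs. In the embryonic cortex the proneural factor Neurog2 acts in dividing progenitors and switches on later bHLH genes. Neurod1 comes on as cells leave the progenitor state, and Neurod2 and Neurod6 are kept in postmitotic glutamatergic neurons, where they act in axon growth and in the maturation of projection neurons. Nhlh1 and Nhlh2 are transient factors of newborn neurons, and Bhlhe22 is a repressor of postmitotic projection neurons that works with Prdm8.

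Chd8 itself was at 3.30 to 4.02 FPKM in new-set controls and 1.84 to 2.09 FPKM in knockdown libraries (limma adjusted p = 0.0213), and at 12.4 and 13.8 against 8.55 and 9.23 FPKM in the first set (limma adjusted p = 0.152). It was lower in every knockdown library than in any control library of its set, with a mean at 53.6% of control for the new set and at 68% for the first set. Absolute depth is unknown from FPKM. The commonest ratio of low values between libraries put the relative depth of the new set at 0.956 to 1.39 times that of control replicate 10, and that of the first-set knockdown libraries at 0.527 and 0.528 times that of first-set control replicate 1. Those knockdown libraries of the first set stood apart in background as well: their 1118 olfactory receptor genes, which belong to the nasal epithelium, averaged 1.39 and 0.993 FPKM, against 0.0181 and 0.0217 FPKM in the first-set controls and at most 0.00554 FPKM in the new set. The cortical identity genes Emx1, Emx2 and Lhx2 each averaged at least 1 FPKM in all 4 groups. In the new set Emx2 and Lhx2 fell (log2 fold changes −0.77 and −0.46, limma adjusted p = 0.0241 and 0.0429). Emx1 had 0.28 there (limma adjusted p = 0.0787). These genes did not pass the test in the first set. Between these sets, effects of the shRNA, the batch and the table cannot be told apart. Within the first set, effects of the knockdown, the depth and the background cannot be told apart either.

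The promoter windows of the members whose values the results turn on are printed here to show where E-boxes, the motif that bHLH dimers recognise, lie. RefSeq (GRCm38.p6) gave a window of 250 bases before to 50 bases after the transcript start for 5 of the 6 members, all but Bhlhe22. Capitals mark every E-box of the form CANNTG, which reads the same on both strands. The window of Neurod6 lies on the minus strand at chr6:55681214-55681513, that of Neurod2 on the minus strand at chr11:98329596-98329895 and that of Nhlh2 on the plus strand at chr3:102009895-102010194.
Neurod6: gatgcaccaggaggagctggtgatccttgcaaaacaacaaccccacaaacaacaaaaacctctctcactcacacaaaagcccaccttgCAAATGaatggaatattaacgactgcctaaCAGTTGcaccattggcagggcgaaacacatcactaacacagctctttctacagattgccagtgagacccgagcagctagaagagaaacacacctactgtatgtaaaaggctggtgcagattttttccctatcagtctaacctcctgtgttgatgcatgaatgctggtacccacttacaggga
Neurod2: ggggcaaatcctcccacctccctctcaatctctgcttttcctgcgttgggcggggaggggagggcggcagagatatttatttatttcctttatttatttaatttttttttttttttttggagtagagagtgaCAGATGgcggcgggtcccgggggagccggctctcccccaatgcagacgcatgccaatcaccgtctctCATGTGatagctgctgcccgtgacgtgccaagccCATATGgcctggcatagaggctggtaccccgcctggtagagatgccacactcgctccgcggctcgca
Nhlh2: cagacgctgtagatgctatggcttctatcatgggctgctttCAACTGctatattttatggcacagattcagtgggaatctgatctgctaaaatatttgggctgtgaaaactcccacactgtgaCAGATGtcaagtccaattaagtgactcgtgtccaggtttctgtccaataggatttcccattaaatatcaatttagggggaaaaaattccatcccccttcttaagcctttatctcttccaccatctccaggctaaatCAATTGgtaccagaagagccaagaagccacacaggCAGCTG

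All 5 windows held at least 1 E-box, and so did 72.3% of the 32851 mouse promoter windows of the same length. Neurod6 held 2 E-boxes, Neurod2 held 3, Neurod1 held 1, Nhlh2 held 4 and Nhlh1 held 2. The form CAGATG, a subset of CANNTG that reads CATCTG on the other strand, was in the windows of Neurod2, Nhlh2 and Nhlh1 and in 17.2% of all windows. It was not among the letters of the Neurod6 or Neurod1 window. CATATG was in the windows of Neurod2 and Neurod1 and in 3.91% of all windows. In Neurod2 it began 17 bases before the transcript start, the nearest upstream E-box among these genes. These matches are descriptions of sequence, and binding was not measured.

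**Figure D1:**
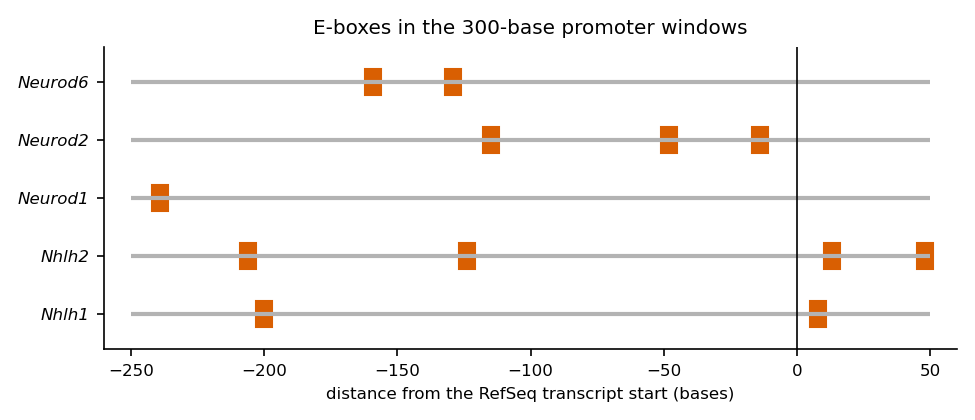
E-boxes (orange bars) in the promoter windows of 5 members, drawn by distance in bases from the RefSeq transcript start (black line). Nhlh2 holds 4, Neurod2 holds 3, Neurod6 and Nhlh1 hold 2 each and Neurod1 holds 1.

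The members spanned a wide range of expression, and FPKM, which is scaled by length, allows them to be ordered within a group. Neurod6 was by far the most abundant in all 4 groups, at 936 ± 64.6 FPKM in the new-set controls (SD, n = 3), which is rank 51 of the 11339 genes that averaged 1 FPKM or more in that group. In those controls Neurod2 (187 ± 11.7 FPKM), Neurod1 (103 ± 2.31 FPKM) and Bhlhe22 (42.5 ± 8.79 FPKM) followed, each with every library above every library of the next. Nhlh2 (9.63 ± 1.82 FPKM) and Nhlh1 (5.96 ± 3.34 FPKM) came last, and their libraries overlapped. The new-set knockdown libraries kept this order, with every library of a gene above every library of the next. In the first-set controls Neurod1 stood above Neurod2 in both libraries, and Nhlh1 stood above Nhlh2 in both. Neurod2 and Neurod1 overlapped in the first-set knockdown libraries. Levels were not tested across the tables, which were made separately.

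**Figure D2:**
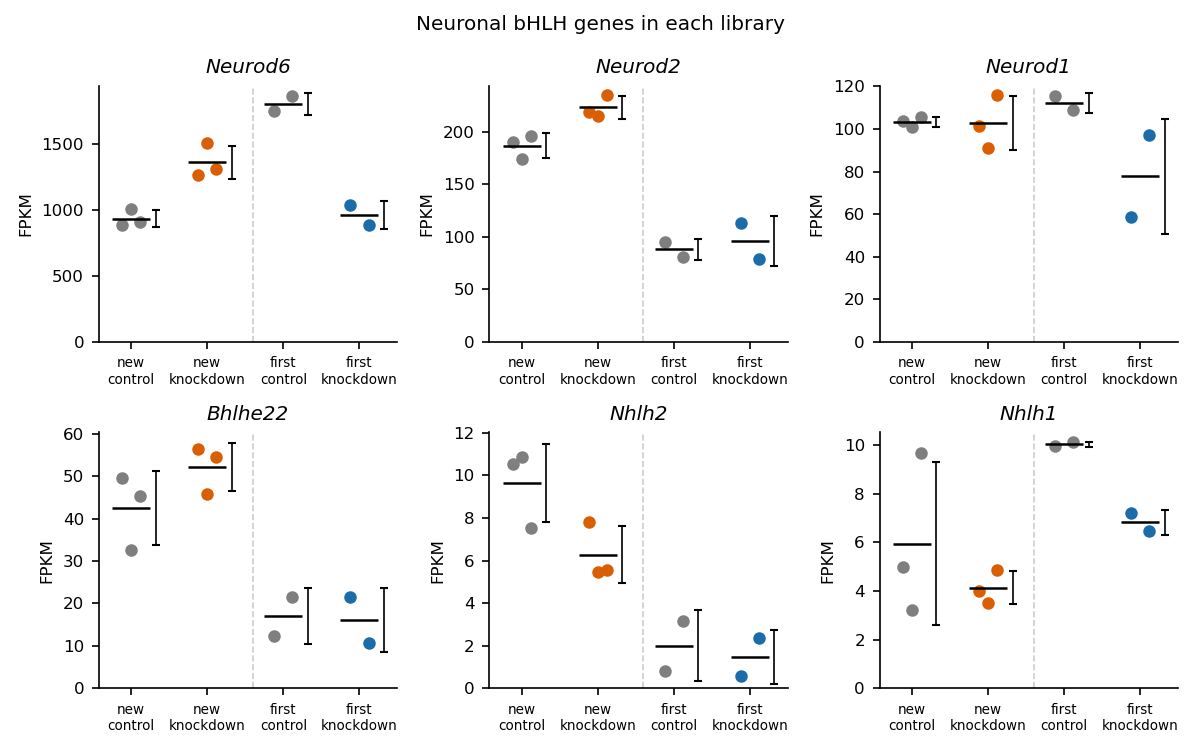
FPKM of each member (one panel per gene, axis from 0) in every library of the 4 groups. Points are libraries, horizontal bars are group means and whiskers are the SD (n = 3 per new-set group, n = 2 per first-set group); Neurod6 is separated between control and knockdown in both sets, upward for the new set and downward for the first set.

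Neurod6, a factor of postmitotic projection neurons, was the only member that passed the test within a set, and it passed in both sets with opposite signs. The new-set mean rose to 1.46 times control, and the first-set mean fell to 53.2% of control. New-set controls 10, 11 and 12 held 889, 1010 and 909 FPKM, and knockdown replicates 10, 11 and 12 held 1266, 1506 and 1315 FPKM. Every new-set knockdown library was above every control. First-set controls 1 and 2 held 1750 and 1866 FPKM, and knockdown replicates 1 and 2 held 1038 and 885 FPKM. Here every knockdown library was below every control. On the log2 scale the new-set change was 0.54 ± 0.128 (standard error; limma adjusted p = 0.0411), and the first-set change was −0.91 ± 0.224 (limma adjusted p = 0.0274). In all, 1 of 6 members changed in the new set, where 8.99% of all tested genes did, and 1 of 6 in the first set, where 23.8% did. The median over the 6 members was 0.12 in the new set, against 0.02 over all tested genes, and −0.38 against −0.15 for the first set. An exact permutation test, two-sided, gave p = 0.1 for 6 new-set libraries and p = 0.333 for 4 first-set libraries, the smallest values that 3 against 3 and 2 against 2 libraries allow. The new-set call was lost without any library other than control replicate 11 (limma adjusted p = 0.102 when control 10 was omitted, 0.13 for control 12, and 0.111, 0.169 and 0.095 for knockdown 10, 11 and 12). The first-set call was lost without any one of its 4 libraries (limma adjusted p = 0.0816 to 0.187) and after median-of-ratios rescaling (log2 fold change −0.74, limma adjusted p = 0.0746).

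The difference between the sets was tested directly in a joined fit. For Neurod6 the new-set fold change exceeded the first-set fold change by 1.45 on the log2 scale (SE 0.218, 95% interval 0.98 to 1.93, limma adjusted p = 0.00129), while 32.5% of all tested genes differed between the sets. An exact permutation test regrouped control and knockdown libraries within each set and gave p = 0.0167 for this value, the smallest that 120 regroupings allow. That test assumes no knockdown effect in either set, rather than equal effects, so it cannot decide whether the effects differ. The difference passed the limma threshold in all 19 alternatives, at 1.13 to 1.57. Of the other members 0 of 5 differed between the sets. Their differences ran from −0.29 for Nhlh2 to 0.55 for Neurod1, whose limma adjusted p was 0.125 with all libraries and 0.00526 without first-set knockdown replicate 2, where its difference was 0.91. Averaged over both sets, 0 of 6 members changed at a limma adjusted p under 0.05, against 29.9% of all tested genes, and 1 member (Neurod1) had an unadjusted p under 0.05. Neurod6, with changes of opposite sign, averaged −0.19 there (95% interval −0.43 to 0.05).

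**Figure D3:**
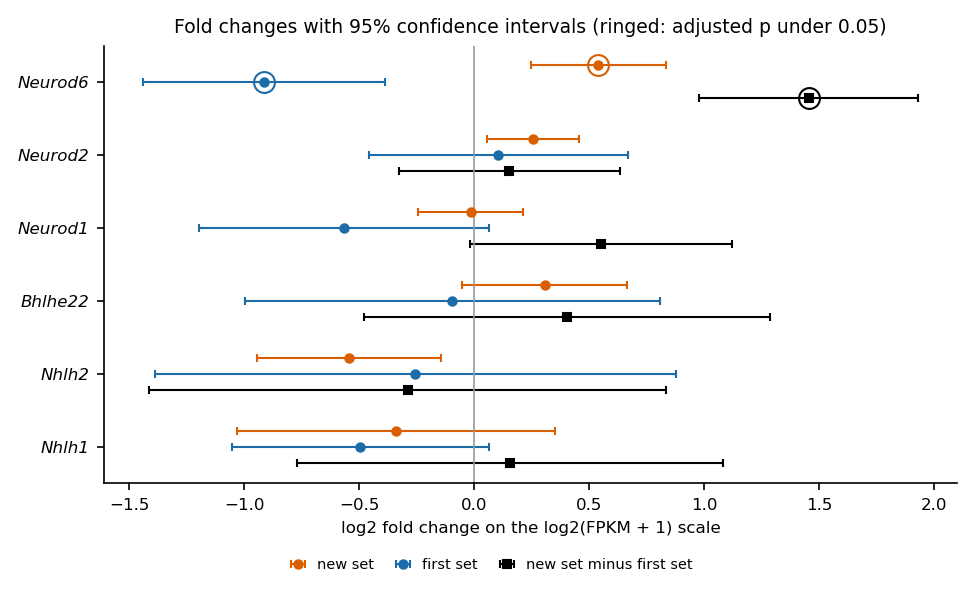
Log2 fold change of knockdown against control on the log2(FPKM + 1) scale for each member in the new set (orange) and the first set (blue), and the new-set minus first-set difference (black squares). Bars are 95% confidence intervals and rings mark an adjusted p under 0.05; Neurod6 carries all 3 rings, at 0.54, −0.91 and 1.45.

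Neurod2, which shares many functions with Neurod6 in cortical neurons, was higher in every new-set knockdown library but by less. New-set controls 10, 11 and 12 held 190, 174 and 197 FPKM, and knockdown replicates 10, 11 and 12 held 219, 215 and 235 FPKM. The groups did not overlap. The log2 fold change was 0.26 (SE 0.0869, 95% interval 0.06 to 0.46), and the limma adjusted p of 0.0961 missed the threshold. With the replicate number as a block, the limma adjusted p was 0.0402, but a shared number is not stated to mark a shared litter or day. With each library rescaled to TPM without microRNA and small nucleolar RNA genes, the log2 fold change was 0.13 (limma adjusted p = 0.441). First-set controls 1 and 2 held 95.1 and 81.2 FPKM and knockdown replicates 1 and 2 held 113 and 79 FPKM. These groups overlapped (log2 fold change 0.10, 95% interval −0.46 to 0.67, and −0.15 to 0.36 with one library left out). The ratio of Neurod6 to Neurod2 within a library was 4.62 to 5.81 in the new-set controls and 5.58 to 6.99 in the knockdown libraries. First-set ratios were 18.4 and 23 in the controls, and 9.18 and 11.2 in the knockdown libraries, which lay below both.

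Neurod1, the family member closest to the progenitor stage, stayed within a narrow range in the new set. Its controls 10, 11 and 12 held 104, 101 and 106 FPKM, and knockdown replicates 10, 11 and 12 held 101, 91.1 and 116 FPKM. The 95% interval of its log2 fold change ran from −0.24 to 0.21. First-set controls 1 and 2 held 115 and 109 FPKM and knockdown replicates 1 and 2 held 58.6 and 97 FPKM. Both knockdown libraries were below both controls, but they differed from each other by more than either control differed from the other. On the log2 scale the change was −0.57 ± 0.268 (standard error), at a limma adjusted p of 0.163. It was −0.21 without knockdown replicate 1 and −0.92 without knockdown replicate 2 (limma adjusted p = 0.522 and 0.0659). Neurod1 overlaps the protein-coding gene Cerkl on its own strand and a non-coding gene on the other strand in GENCODE M21, so some of its fragments could not be told apart if the authors' annotation held the same overlap. The other 5 members overlap 0 annotated genes there.

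Bhlhe22, the repressor partner of Prdm8, gave values of 49.5, 32.6 and 45.4 FPKM in new-set controls 10, 11 and 12 and 56.3, 45.8 and 54.5 FPKM in knockdown replicates 10, 11 and 12. Each knockdown library was above the control of the same number, while the groups as a whole overlapped. The change on the log2 scale was 0.31 ± 0.156 (standard error), which missed the threshold at a limma adjusted p of 0.224. Without control replicate 11, the lowest of the controls, it was 0.13 (limma adjusted p = 0.401). With the replicate number as a block the limma adjusted p was 0.0409. First-set controls 1 and 2 held 12.4 and 21.6 FPKM and knockdown replicates 1 and 2 held 21.5 and 10.8 FPKM. These libraries varied as much within a group as between groups (log2 fold change −0.10 ± 0.384, standard error), and the sign turned positive after median-of-ratios or TPM rescaling (0.07 and 0.09). Prdm8 passed in neither set, with new-set and first-set log2 fold changes of −0.16 and 0.54 (limma adjusted p = 0.32 and 0.217).

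Nhlh2, a factor of newborn neurons, gave 10.5, 10.8 and 7.54 FPKM in new-set controls 10, 11 and 12, and 7.82, 5.46 and 5.56 FPKM in knockdown replicates 10, 11 and 12. The groups overlapped at 1 pair of libraries, control 12 and knockdown 10. Nhlh2 had a change of −0.55 ± 0.174 on the log2 scale (standard error) at a limma adjusted p of 0.0837, and with the replicate number as a block the limma adjusted p was 0.0338. With that block 4 of 6 members passed (Neurod6, Neurod2 and Bhlhe22 higher, Nhlh2 lower), where 21.7% of all tested genes did. Nhlh2 was low in the first set, at 0.82 and 3.18 FPKM in controls 1 and 2 and 0.591 and 2.35 FPKM in knockdown replicates 1 and 2. Its level in knockdown replicate 1 was below the 1.39 FPKM that olfactory receptor genes averaged in the same library, so a change of Nhlh2 was not detectable there (95% interval −1.39 to 0.88).

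Nhlh1 was low in both sets. New-set controls 10, 11 and 12 held 4.98, 3.22 and 9.67 FPKM, and knockdown replicates 10, 11 and 12 held 4.01, 3.52 and 4.86 FPKM. Control replicate 12 held more than any other library of that set, and without it the log2 fold change was 0.02 instead of −0.34. Without control replicate 11, the lowest, it was −0.65 (limma adjusted p = 0.108). Both first-set knockdown libraries (7.19 and 6.47 FPKM) were below both controls (9.96 and 10.1 FPKM). This gave −0.50 ± 0.238 on the log2 scale (standard error), at a limma adjusted p of 0.167. The 95% interval reached 0.06. With the olfactory receptor mean of each library subtracted, the first-set change was −0.73 (limma adjusted p = 0.083). After median-of-ratios or TPM rescaling it was −0.34 (limma adjusted p = 0.338 and 0.397).

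The genes that work with these factors were followed in lists by role, and each count is read beside the share of all tested genes. New-set changes were upward for 3.84% of all tested genes and downward for 5.15%, and first-set changes for 13.2% and 10.7%. Of the E protein partners 0 of 3 changed in the new set, where 1 had an unadjusted limma p under 0.05. Tcf4 was the 1 of 3 that fell in the first set (242 ± 0.48 to 133 ± 12.6 FPKM, SD over 2 libraries each; −0.87 on the log2 scale, limma adjusted p = 0.0209). Tcf12 had −0.66 and Tcf3 had 0.56 there, neither past the threshold. Without any one first-set library, or after median-of-ratios rescaling, 0 of 3 passed in that set. All 3 E proteins differed between the sets, Tcf4 and Tcf12 upward in the new set relative to the first set and Tcf3 downward (limma adjusted p = 0.0021, 0.0117 and 0.015), while 1 differed upward and 1 downward after TPM rescaling. Over all genes, 22.5% differed upward and 9.98% downward.

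Of 9 HLH inhibitors, which hold back bHLH activity, 7 were tested. In the new set 3 of 7 fell, Id4, Hes1 and Hes5, and 0 rose (median log2 fold change −0.73, against 0.02 for all tested genes). Hes5, a Notch-driven repressor, went from 44.1 ± 2.07 to 24.9 ± 3.23 FPKM (SD over 3 libraries each; −0.81 on the log2 scale, limma adjusted p = 0.0105). Id1 and Id3 were the 2 of 7 that rose in the first set, and 0 fell (median 0.12, against −0.15 for all tested genes). Id1 went from 4.17 ± 2.31 to 40.1 ± 2.91 FPKM (SD over 2 libraries each; 3.06 on the log2 scale, limma adjusted p = 0.00167) and Id3 from 8.78 ± 0.448 to 44.6 ± 4.85 FPKM (2.22, limma adjusted p = 0.00138). Both differed between the sets, by −3.40 and −2.99 as new set minus first set (limma adjusted p = 0.000953 and 0.000288). With the replicate block, and after TPM rescaling, 4 of 7 fell in the new set. With no filter on low values 0 of 9 fell there, and 1 of 9 rose in the first set. With background subtracted 2 of 7 rose and 1 fell in the first set. With one library left out, 2 to 3 of 7 fell in the new set and 1 to 2 rose in the first set.

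Of 13 proneural and other neural bHLH genes outside the members, 4 were abundant enough to be tested. Neurog2 fell in the new set (278 ± 10.1 to 186 ± 12 FPKM, SD over 3 libraries each; −0.58 on the log2 scale, limma adjusted p = 0.0149) while 0 of 4 rose there. With the replicate block 3 of 4 fell. Without new-set knockdown replicate 11, 0 of 4 fell, and with no filter on low values 0 of 13 did. Of the 4 genes 0 passed in the first set, where 1 had an unadjusted limma p under 0.05, Neurod4 (−1.07, limma adjusted p = 0.0502), a NeuroD family gene outside the members. In that set 1 of 4 fell with a pseudocount of 5 or without the intensity trend, and 1 of 3 tested fell with background subtracted. After TPM rescaling 2 of 7 tested rose there, and with no filter 1 of 13 rose. Of 8 Neurog2 targets and intermediate progenitor genes, 3 fell in the new set (Dll1, Gadd45g and Hes6) and 0 rose. Of the same 8 genes, 2 rose (Gadd45g and Hes6) and 3 fell (Eomes, Rnd2 and Btg2) in the first set, and after median-of-ratios rescaling 2 rose and 1 fell there. With the replicate block, and after TPM rescaling, 4 of 8 fell in the new set. With no filter 0 of 8 rose or fell in either set. Hes6 went from 228 ± 19.5 to 154 ± 10.2 FPKM in new-set libraries and from 42.8 ± 14.9 to 167 ± 52 FPKM in first-set libraries (limma adjusted p = 0.02 and 0.00599). With one library left out, 1 to 3 of the 8 fell in the new set, while 0 to 1 rose and 0 to 1 fell in the first set. Mfng had −0.23 and −0.67, with limma adjusted p of 0.0991 and 0.0632.

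Genes of the neurons in which Neurod2 and Neurod6 act had signs like those of Neurod6 in several cases. Of 12 transcription factors and cofactors of cortical projection neurons, 3 rose in the new set (Sox5 and Mef2c among them) and 0 fell, whereas 5 fell (Bcl11b, Sox5, Pou3f2 and Zeb2 among them) and 0 rose in the first set. With the replicate block 4 rose in the new set, and after TPM rescaling or without the intensity trend 2 did. With no filter on low values 0 of 12 rose there, and 2 fell in the first set. After median-of-ratios and TPM rescaling 2 and 3 fell in the first set. Their median log2 fold changes were 0.23 for the new set and −0.45 for the first set, against 0.02 and −0.15 for all tested genes. Of the 12, 6 differed between the sets on the deposited scale, all 6 upward in the new set relative to the first set, while 5 differed upward and 1 downward after median-of-ratios rescaling and 5 upward and 2 downward after TPM rescaling. Bcl11b, a factor of subcerebral neurons, went from 80.3 ± 8.52 to 94 ± 17 FPKM in the new set (limma adjusted p = 0.337) and from 46.9 ± 7.13 to 18.3 ± 1.21 FPKM in the first set (−1.30, limma adjusted p = 0.0072). Of 12 genes of differentiating neurons, Dcx, Gap43 and Mtap2 rose and Slc17a6 fell in the new set, and with the replicate block 6 rose and 2 fell. After median-of-ratios or TPM rescaling 2 rose and 2 fell there, and without the intensity trend 1 rose and 0 fell. Dcx, Mtap2 and Nrp1 fell in the first set, and 0 of 11 tested rose. With no filter 0 of 12 rose or fell in either set. Mtap2, which codes for a dendritic microtubule protein, had log2 fold changes of 0.50 and −1.47 (limma adjusted p = 0.0478 and 0.00736). Of these 11 genes 5 differed between the sets on the deposited scale, all upward in the new set relative to the first set, while 3 differed upward and 1 downward after either rescaling. Leaving out one library left 0 to 2 risen projection neuron factors in the new set and 0 to 1 fallen in the first set. It left 3 to 6 of the 11 differentiating neuron genes higher and 0 to 1 lower in the new set relative to the first set, 0 to 5 of 12 risen in the new set and 0 to 2 fallen in the first set.

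**Figure D4:**
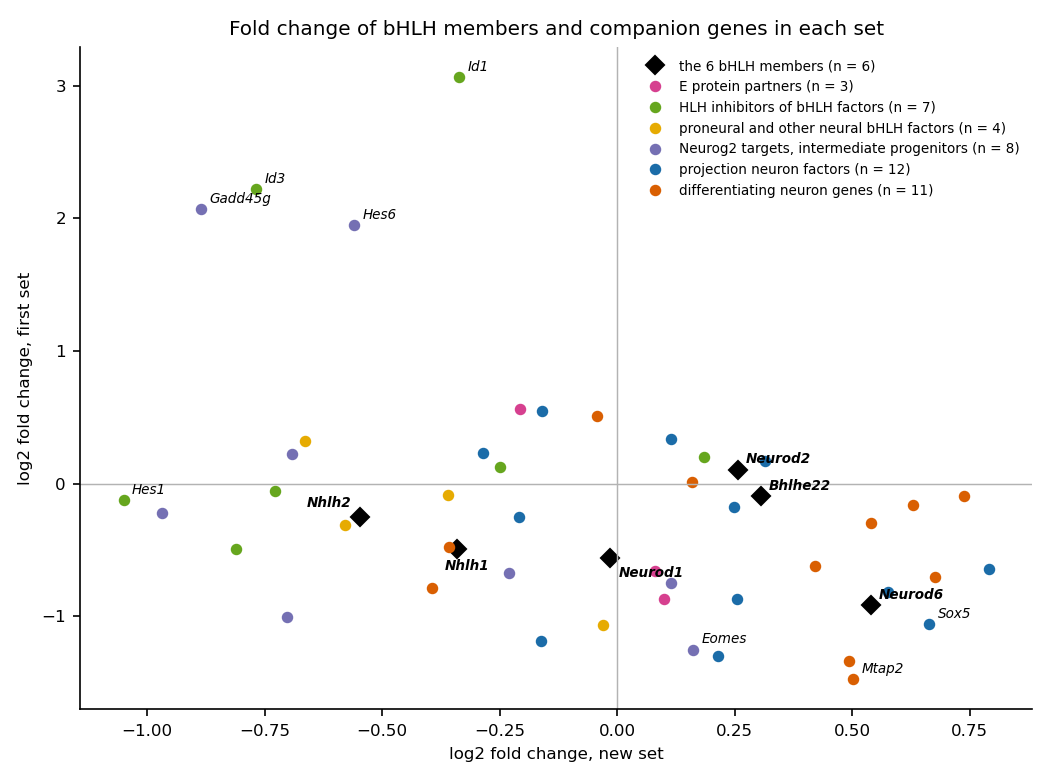
Log2 fold change in the new set (horizontal axis) against that in the first set (vertical axis) for the 6 members (black diamonds) and for the tested genes of each list by role (coloured circles). Neurod6 lies at 0.54 and −0.91, to the lower right with Sox5 and Mtap2, whereas Id1, Id3, Hes6 and Gadd45g lie to the upper left.

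Summed levels of markers of cell classes were set beside the members, and in bulk samples fewer cells of a type and less RNA per cell cannot be told apart. The summed level of 6 glutamatergic neuron markers was 1111 to 1433 FPKM in the new-set controls and 1555 to 2113 FPKM in the knockdown libraries, with Dcx past the test upward, Slc17a6 downward and the other 4 short of it. The first-set sums were 2227 and 2948 FPKM in controls and 2047 and 2093 FPKM in knockdown libraries. Of 8 radial glia markers 0 rose, and 5 fell in the new set but 2 in the first set. Their sum overlapped between groups, at 1161 to 1506 and 970 to 1515 FPKM in new-set controls and knockdown. First-set sums were 1792 to 1809 and 1018 to 2171 FPKM in controls and knockdown. Fabp7 was the largest part of these sums, at 875 ± 158 and 779 ± 283 FPKM in new-set controls and knockdown (SD, limma adjusted p = 0.598). The 5 that fell in the new set (Pax6, Sox2, Sox9, Hes1 and Hes5) averaged 24 to 51 FPKM in its controls. The sum therefore says little about them. The sum of 4 intermediate progenitor markers was 511 to 579 FPKM in new-set controls and 351 to 381 FPKM in knockdown libraries, and 437 to 441 against 485 to 912 FPKM in the first set. Among these 4, Gadd45g and Hes6 rose in the first set (Gadd45g to 172 and 582 FPKM in the knockdown libraries), and Eomes and Btg2 fell (−1.25 and −1.01 on the log2 scale). The sum of 7 GABAergic interneuron markers was 16.3 to 22.9 FPKM in new-set controls and 7.92 to 8.39 FPKM in knockdown libraries, and 18.7 to 43.3 against 15.2 to 45.7 FPKM in the first set. The sum of 5 Cajal-Retzius markers was 5.94 to 10.2 FPKM in new-set controls and 2.07 to 3.35 FPKM in knockdown libraries, and it was 1.86 to 5.83 against 2.49 to 4.62 FPKM in the first set. Erythroid genes summed to 137 to 264 FPKM in new-set controls and 23.1 to 114 FPKM in knockdown libraries, and to 16.2 to 19 against 0.353 to 41.7 FPKM in the first set. Microglial and endothelial sums were at most 5.38 FPKM in every library. Choroid plexus genes were at most 1.91 FPKM except in new-set knockdown replicate 10, at 43.5 FPKM. No listed marker was at 0 in all libraries of a group. The part of these markers in the results for the members was not tested. With the olfactory receptor mean of each library subtracted, Neurod6 had a log2 fold change of −0.92 in the first set (limma adjusted p = 0.0317) and 0.54 in the new set. The subtracted means were at most 1.39 FPKM and Neurod6 was at 885 FPKM or more in every library. This subtraction could therefore hardly move its value, and whether background affected Neurod6 was not tested by it.

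The genes with the most similar pattern were found for each member by the root-mean-square difference of log2(FPKM + 1), after each gene was centred on its mean in each set, over 10 libraries. Candidates were 7437 genes (7438 for Nhlh2) with a mean of at least 5 FPKM in both tables. For Neurod6 the nearest were Mllt11, Ntm, Coq3, Kcnj11 and Calm2, at differences of 0.0918 to 0.098, while the median candidate was at 0.355. All 5 had a positive log2 fold change in the new set and a negative one in the first set, from 0.35 to 0.61 and from −0.98 to −0.69. These signs follow from the choice of genes by their likeness to Neurod6 over the same libraries, and are not a separate result. Its relatives were not close: Neurod1 ranked 3629 and Neurod2 ranked 4040 of 7437. For Bhlhe22 the nearest included Tbr1, a factor of deep-layer projection neurons, at rank 3 (0.183), after Jph4 and Exoc8 and before Pygo2 and Rnf103, and Neurod2 was at rank 136. Neurod2 was nearest to Atp6v0d1, Gabarap, Mul1, Zfp668 and Rtn3 (0.0884 to 0.102), and Neurod1 to Ipp, Acbd3, Atg4a, Tm7sf3 and Naa50 (0.0722 to 0.0885). The nearest genes were farther for Bhlhe22 (0.169 to 0.193) and for Nhlh1 (Adnp, 2700081O15Rik, Eps15l1, Phf21b and Suz12, 0.147 to 0.181). They were farthest for Nhlh2 (Cnot6, Sparc, Clu, Crebzf and Cdk8, 0.207 to 0.233). These ranks are descriptions over libraries that share sets, depth and background.

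**Figure D5:**
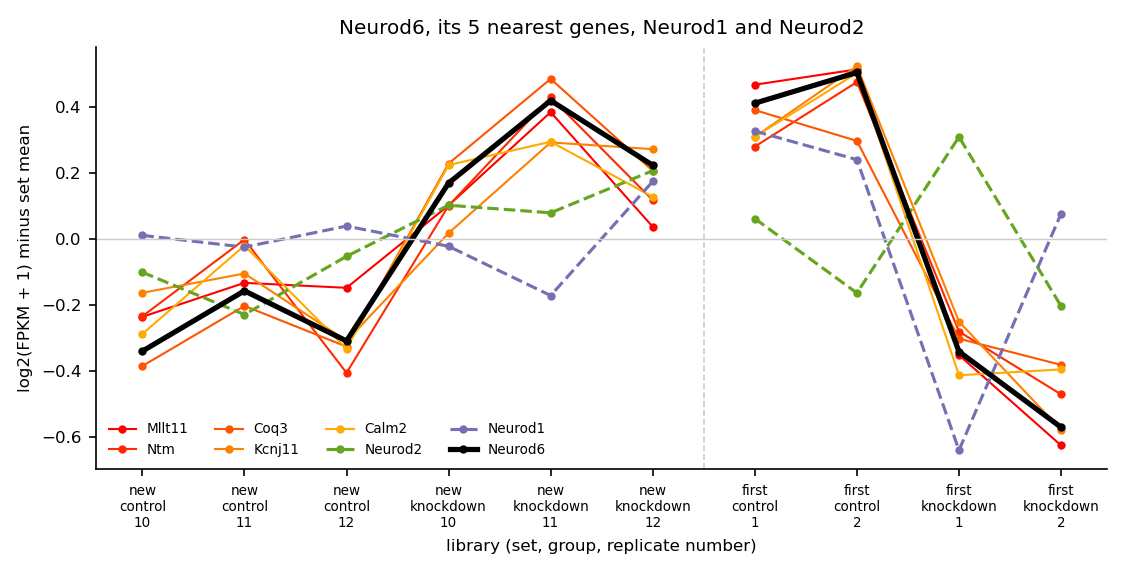
Log2(FPKM + 1) minus the mean of the set in each of the 10 libraries for Neurod6 (thick black), its 5 nearest genes (solid, red to yellow), Neurod1 and Neurod2 (dashed). Lines only join the points of a gene within a set. Neurod6 and its 5 nearest genes are higher on average in the new-set knockdown libraries and lower in the first-set knockdown libraries than in the controls. The 5 genes share this pattern because they were chosen for likeness to Neurod6 over these libraries.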

How the data were processed

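RNA was sequenced from sorted GFP-positive cortical cells in 10 libraries, with RNeasy Plus extraction and Clontech low-input library preparation per the labels' protocols. The authors deposited FPKM in 2 tables. TopHat2, Bowtie, Cufflinks 2.0.0, Cuffdiff and the mouse build mm9 are named in the submitters' processing notes, and the sources used here give no gene annotation or strand setting. Libraries were grouped by their titles, and replicates are separate pools of embryos per the design text.

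Values were transformed to log2(FPKM + 1), which understates the change of low genes, and a gene was tested where its mean over a table reached 1 FPKM. The model for each set came from limma 3.58.1 under R 4.3.3 (intensity trend, two-sided), and a joined limma fit gave the mean and the difference of the fold changes of both sets. P-values were adjusted by Benjamini-Hochberg over all genes tested, and an adjusted p under 0.05 counts as a change. The fit was tested on simulated data with the same planted changes in both sets. Recovery of a difference between the sets was therefore not tested there.

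The members and lists were chosen with earlier results of these data known. Named genes are the members, Chd8, the 3 genes of each list that rank lowest by joined-fit p, and for each member the 5 genes nearest in pattern. Further list genes named among those that changed, beside a member or as markers were chosen after their values were seen. Some listed genes are not reported here by name. Mtap2 stands for the listed symbol Map2, a RefSeq synonym. Libraries with the same replicate number deviated together in the new set (correlation of deviations across 11291 genes 0.122, 0.242 and 0.193 for replicates 10, 11 and 12) and not in the first set (-0.0285), so the replicate block is given beside new-set results where it changes a call. These correlations come from the same data as the calls. The sources used here do not state that a shared number marks a shared litter or day, so the block is an alternative only. Other alternatives were the pseudocount, the filter, 3 rescalings, no trend and leaving out each library.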

Additional observations from a re-analysis of the deposited data

Results flagged for a closer look

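Neurod6 was set apart because its knockdown effect differed between the sets in the test of the difference itself. The new-set minus first-set log2 fold change was 1.45 (limma adjusted p = 0.00129), with all 3 new-set knockdown libraries above all 3 controls and both first-set knockdown libraries below both controls. The shRNA, the batch and the table cannot be told apart in this difference. First-set knockdown libraries also had a lower relative depth (0.527 and 0.528 of first-set control replicate 1). Their olfactory receptor means were higher (1.39 and 0.993 FPKM, against 0.0181 and 0.0217 FPKM in the first-set controls). Effects of depth and background cannot be told apart from that of the knockdown in that set.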

How the results depend on the processing

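Of 393 member values under 19 alternative settings, 373 kept their side of the threshold (or stayed short of it), 12 lost a call, 8 gained one and 0 were called in the opposite direction. The count of members changed in the new set, 1 in the report, was 0 with no filter on low values (31 genes called in all, against 1015) and 4 with the replicate block (2452 genes), and 0 to 1 with one library left out. In the first set the count of 1 became 0 with no filter, 0 with median-of-ratios rescaling and 0 without any one library. For both sets joined it was 1 with the replicate block (Nhlh2) and 0 to 2 with one library left out (Nhlh1 without new-set control replicate 11, Neurod1 and Neurod2 without first-set knockdown replicate 2). Members differing between sets numbered 1 to 2 with one library left out. The block changed no other member call. Rescaling without microRNA and small nucleolar RNA genes moved the median of all genes from 0.02 to -0.11 in the new set and from -0.15 to 0.11 in the first set, and the upward share of calls from 42.8% to 19.6% and from 55.2% to 82.2%. Neurod6 was then at 0.41 and -0.72, with its calls kept. The upward share in the first set was 74.3% after median-of-ratios rescaling and 30.6% after background subtraction. Signs of Neurod2 and Bhlhe22 in the first set, of Nhlh1 in the new set and of other values short of the threshold changed in some settings. The upward share of joined calls went from 31.3% to 46.6%, 44.6% and 17.6% after median-of-ratios, TPM and background rescaling, and that of differences from 69.3% to 51.6%, 30.7% and 83.4%. With one library left out, 88 to 1883 genes changed in the new set and 713 to 1247 (against 2971) in the first set. With no filter 7298 genes changed in the joined sets (against 3238) and 7624 differed (against 3520). The causes were not tested. Nhlh2 in the first set was not tested at a minimum of 5 FPKM. Depth is known only as a ratio between libraries, and the lower depth and higher background of the first-set knockdown libraries limit values near 1 FPKM.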

Other observations

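Of the neural bHLH genes too low to be tested, Neurog3 and Atoh1 were listed at 0 FPKM in all 6 new-set libraries and both first-set controls. In first-set knockdown replicates 1 and 2 Neurog3 was at 1.97 and 0.786 FPKM and Atoh1 at 1.96 and 1.19 FPKM, beside olfactory receptor means of 1.39 and 0.993 FPKM in the same libraries. These values came from the libraries in which the rise of Id1 and Id3 was measured, at 40.1 and 44.6 FPKM on average.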
